A study of Mus musculus with 4 samples.

Results

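The enzymes that hydroxylate and crosslink collagen were examined in ID8G and GO2 mouse ovarian cancer cells: the 5 lysyl oxidases Lox, Loxl1, Loxl2, Loxl3 and Loxl4, the 3 lysyl hydroxylases Plod1, Plod2 and Plod3, and the prolyl 4-hydroxylase alpha subunits P4ha1 and P4ha2. These 10 genes, of the 22911 gene symbols represented on the array, were chosen by name, with earlier results of these data known. Their probes were found through the RefSeq accession of each probe. The 10 genes have 16 probes (5 genes with 1 probe, 4 with 2 and Loxl4 with 3), and all 16 were tested.

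ID8G cells are ID8 mouse ovarian cancer cells that express GFP. GO2 cells descend from them by repeated growth in mice: GFP-positive cells sorted from omental tumors (GO cells) were injected intraperitoneally again, and the GFP-positive cells of the next omental tumors became GO2 cells. The mice were of strain C57BL/6J, and the sorts for GO and for GO2 cells also removed CD45-positive cells, which are leukocytes. The authors name DMEM with 4% FBS, insulin, transferrin and sodium selenite as the medium of ID8 cells. They name no separate medium for GO2 cells. ID8G cells also spread in the peritoneum, and the comparison asks which genes differ in the line that spreads more. Total RNA of each line was hybridized to 2 Agilent arrays, and nothing states whether the arrays of a line came from separate cultures, so the p values measure the spread between arrays, which may be technical. GO2 is a single selected line, and differences that arose in the mice and in culture cannot be told apart.

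Collagen chains are modified before and after they leave the cell. In the endoplasmic reticulum, prolyl 4-hydroxylase converts proline to 4-hydroxyproline, which stabilizes the triple helix, and lysyl hydroxylases convert lysine to hydroxylysine, a site for sugars and for the stronger kinds of crosslink. Outside the cell, the copper-dependent lysyl oxidases oxidize lysine and hydroxylysine to aldehydes, which join neighboring molecules into crosslinked fibrils, and they act on elastin in the same way. In solid tumors such crosslinks are known to stiffen the matrix.

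A level is a probe's log2 intensity after subtraction of the 75th percentile of the same array, so that 0 is a signal equal to that percentile. Differences between the lines were taken within a probe. The mean linear level given for a marker list pools probes, so its brightest probes weigh most. A probe was called higher or lower in GO2 cells at a Benjamini-Hochberg adjusted p below 0.05 over all 28370 probes tested with limma and a difference of at least 2-fold. The arrays lay on 1 slide. Between 27507 and 28876 probes per array were well above background, no spot was saturated, and the Pearson correlation between arrays of a line was 0.997 across tested probes, against 0.967 to 0.968 between the lines. Of the 8 epithelial markers, 5 (Krt8, Krt18, Krt19, Cdh1 and Cldn3) passed the background on every array and Epcam, Krt7 and Cldn4 on none, with Krt18 at 8.09 in ID8G and 7.28 in GO2 cells. All 5 mesothelial markers on the array, among them Wt1 and Msln, were well above background on all 4 arrays. Of these, Upk3b was called higher in GO2 cells (log2 difference 1.08, limma adjusted p = 0.000787). Msln passed as lower by less than 2-fold (-0.82, adjusted p = 0.00176), and Wt1, Upk1b and Lrrn4 did not pass.

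Lox and P4ha2 stood apart from the other enzymes. Both Lox probes were 7.82-fold and 9.05-fold higher in GO2 cells, and the P4ha2 probe was 3.75-fold higher. The measured differences of the other 13 probes, which cover 8 genes, were under 2-fold. Thus 3 of 16 probes were called higher, where 4.5% of all tested probes were, and 0 were called lower, where 3.34% of all tested probes were. At an unadjusted p below 0.05 no probe was lower either (0 of 16, limma), and 0 were lower by the methods' t-test. At an adjusted p below 0.05 with no minimum difference, a criterion added after the values were seen, 12 of the 16 probes were higher and 0 lower, against 17% of all tested probes higher and 18.9% lower. With signal required on all 4 arrays, 11 of the 12 passed, and the Loxl4 probe left out had been tested only through its GO2 signal. The median difference of the 16 probes was 0.43 on the log2 scale, against -0.02 over all probes tested. Both GO2 arrays lay above both ID8G arrays for 13 of the 16 probes, against 33.9% of all tested probes, and below them for 1 (Plod2), against 39.6%. The count of 12 depends on the setting: it was 7 with the arrays scaled to the spike-in transcripts, 7 without GO2 replicate 2, and 3 with no filter on dim probes, while the 3 calls at 2-fold or more were kept under each of these.

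**Figure D1:**
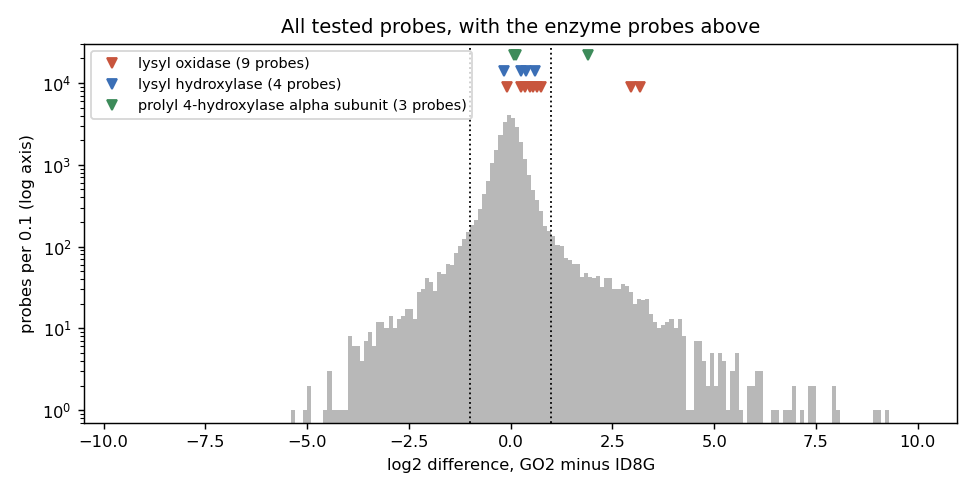
Histogram of the log2 difference (GO2 minus ID8G) of all 28370 tested probes in bins of 0.1, on a log axis, with triangles at the differences of the 16 enzyme probes by family and dotted lines at 2-fold. The 2 Lox probes and the P4ha2 probe lie to the right of the upper line, and the other 13 lie between the lines.

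Lox, the founding lysyl oxidase, was measured by 2 probes of the same RefSeq transcript. The brighter probe (A_55_P2911063) read 0.59 and 0.51 in ID8G cells and 3.75 and 3.71 in GO2 cells, which corresponds to deposited intensities of 1019 and 952 against 8544 and 8216. The second probe (A_66_P138929) had levels of -2.36 and -2.56 in ID8G cells and 0.57 and 0.44 in GO2 cells. Both probes were well above background on all 4 arrays, so Lox was already measured in the parental line, and on each probe the GO2 arrays lay far above the ID8G arrays. The difference was 3.18 on the log2 scale for the brighter probe (standard error 0.06, limma adjusted p = 0.000189) and 2.97 for the second (standard error 0.10, adjusted p = 0.000369). Of the 13215 genes tested, taken by their brightest probe, 1.18% had a larger difference than Lox. Across all settings the brighter probe differed by 2.97 to 3.22 and the second by 2.38 to 3.06.

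**Figure D2:**
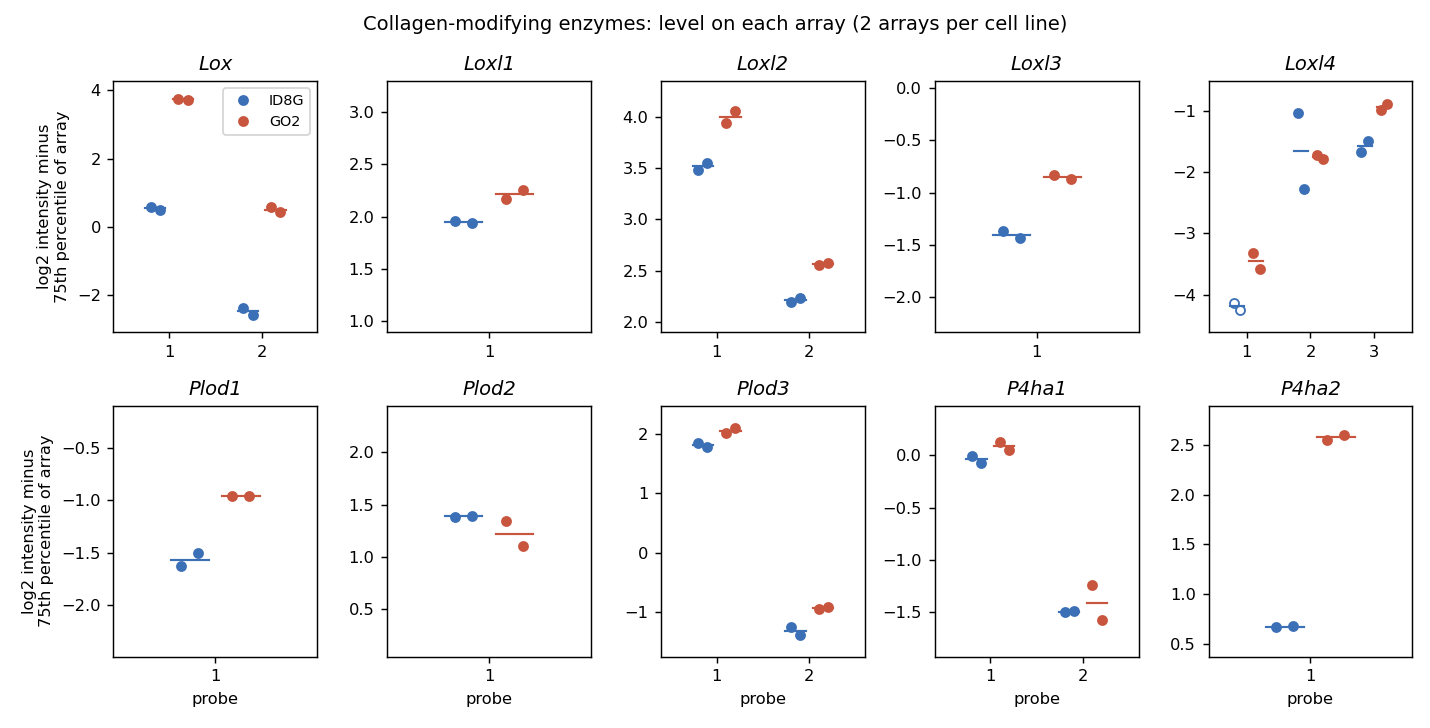
Level of every enzyme probe on each array (points, log2 scale, 0 at the array's 75th percentile), with the mean of the 2 arrays of each cell line as a line. Open points mark a cell line in which the probe was well above background on no array; the 2 cell lines are far apart for Lox and P4ha2, and the ID8G arrays disagree for the second Loxl4 probe.

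Of the 7 probes of the Lox paralogs, 6 passed the adjusted p as higher in GO2 cells and 1, of Loxl4, did not. Another Loxl4 probe, among the 6, was well above background in GO2 cells only. None was called at 2-fold. Loxl1, which is known for its part in elastic fibers, had levels of 1.96 and 1.94 in ID8G cells and 2.17 and 2.26 in GO2 cells, so that they differed by 0.27 (standard error 0.06; adjusted p = 0.0329, limma). With spike-in scaling this difference was 0.058 and no longer passed (adjusted p = 0.721). Both GO2 arrays lay above both ID8G arrays.

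Loxl2 belongs with Loxl3 and Loxl4 to the lysyl oxidases that carry scavenger receptor domains, and its collagen crosslinking is known from fibrotic and tumor matrix. Its brighter probe (A_52_P480351) had levels of 3.48 and 3.55 in ID8G cells and 3.94 and 4.06 in GO2 cells. The other probe (A_55_P2131348) had 2.19 and 2.23 against 2.56 and 2.57. The probes gave differences of 0.48 and 0.35 (standard errors 0.07 and 0.05, adjusted p = 0.0116 and 0.0122), a 1.40-fold and a 1.28-fold higher level. Loxl3 had levels of -1.37 and -1.44 in ID8G cells and -0.83 and -0.87 in GO2 cells, a difference of 0.55 (standard error 0.06, adjusted p = 0.00493), so that the 2 lines did not overlap. With spike-in scaling the differences were 0.27 and 0.14 for Loxl2, neither past the test (adjusted p = 0.0847 and 0.350), and 0.35 for Loxl3 (adjusted p = 0.0487).

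Of the 3 probes of Loxl4, 2 passed as higher in GO2 cells, 1 of them tested only through its GO2 signal. The remaining probe was not measured closely enough to place. The probe A_66_P107231 had levels of -1.67 and -1.48 in ID8G cells and -0.99 and -0.88 in GO2 cells, a difference of 0.64 (standard error 0.09, adjusted p = 0.0106). The probe A_52_P342526, which matches another RefSeq transcript of the gene, had levels of -4.14 and -4.25 in ID8G cells, well above background on neither array, and -3.32 and -3.58 in GO2 cells. It entered the test only through its GO2 arrays and was at least 1.17-fold higher. The limma adjusted p of 0.0121 belongs to the measured difference of 0.74 and not to this bound. The third probe (A_55_P2044143), of the same transcript as the first, read -1.04 and -2.27 in ID8G cells, and -1.72 and -1.78 in GO2 cells. Its ID8G arrays lay 1.23 apart on the log2 scale, where the median gap between ID8G arrays over all tested probes was 0.077, and its difference of -0.09 had a 95% interval from -1.28 to 1.10. This interval is too wide to place the probe with or against the others, and without ID8G replicate 1 the difference was 0.52, without ID8G replicate 2 it was -0.71.

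The 95% intervals of both Lox probes, 3.02 to 3.34 and 2.70 to 3.23, lay above those of all 7 probes of the other lysyl oxidases, the highest of which ended at 1.10. These intervals are for single probes and are not adjusted for the number of probes.

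**Figure D3:**
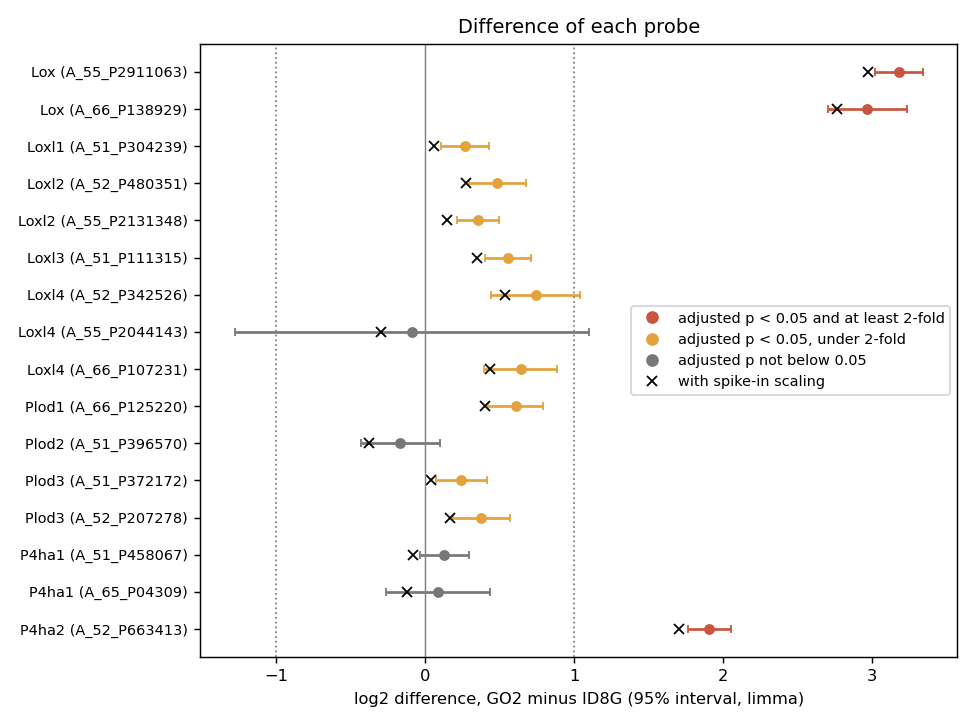
Log2 difference (GO2 minus ID8G) of each enzyme probe with its 95% interval from limma; crosses give the value with spike-in scaling and dotted lines mark 2-fold. Lox and P4ha2 lie between 1.91 and 3.18, and the other 13 probes between -0.17 and 0.74.

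Among the lysyl hydroxylases, Plod1 and Plod3 were higher in GO2 cells by less than 2-fold and Plod2 did not pass the test. Plod1, which hydroxylates lysines of the collagen helix, had levels of -1.63 and -1.50 in ID8G cells and -0.96 on both GO2 arrays, so that they differed by 0.61 (standard error 0.07; adjusted p = 0.00604, limma). Plod2, the enzyme that hydroxylates the telopeptide lysines from which the stable crosslinks of fibrotic collagen start, had levels of 1.38 and 1.39 in ID8G cells and 1.34 and 1.10 in GO2 cells. Both GO2 arrays lay below both ID8G arrays, but the GO2 arrays were 0.24 apart, and the difference of -0.17 did not pass (standard error 0.10, adjusted p = 0.247). Its 95% interval runs from -0.43 to 0.10, which leaves room for a small decrease but not for an increase of the size seen in Plod1. With spike-in scaling the difference was -0.37 and passed at an adjusted p of 0.0484, short of 2-fold.

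Plod3, which also transfers sugars to hydroxylysine, was measured by 2 probes. The brighter one (A_51_P372172) had levels of 1.85 and 1.79 in ID8G cells and 2.02 and 2.11 in GO2 cells, and the other (A_52_P207278) had -1.25 and -1.39 against -0.96 and -0.93. The differences were 0.24 (standard error 0.06, adjusted p = 0.0467) and 0.38 (standard error 0.07, adjusted p = 0.0208). On each probe the GO2 arrays lay above the ID8G arrays, by 1.18-fold and 1.30-fold on average. With spike-in scaling they were 0.035 and 0.17, and neither passed (adjusted p = 0.836 and 0.313).

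The prolyl 4-hydroxylase alpha subunits, which carry the catalytic site and pair with the shared beta subunit P4hb, differed from each other. P4ha2 (A_52_P663413) had levels of 0.66 and 0.68 in ID8G cells and 2.56 and 2.60 in GO2 cells, or deposited intensities of 1070 for each ID8G array against 3735 and 3804 for GO2 cells. The arrays of each line nearly coincided, and the difference was 1.91 (standard error 0.05, limma adjusted p = 0.000286). Across settings it ranged from 1.70 to 1.93, and 3.18% of the genes tested had a larger difference.

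P4ha1 had levels of -0.01 and -0.07 in ID8G cells and 0.13 and 0.05 in GO2 cells on its brighter probe (A_51_P458067). Its other probe (A_65_P04309) had -1.50 and -1.49 against -1.24 and -1.58, so that its GO2 arrays lay on either side of the ID8G arrays. The differences of 0.13 and 0.08 did not pass (standard errors 0.06 and 0.13, adjusted p = 0.175 and 0.636), and with spike-in scaling they were -0.081 and -0.12. The 95% intervals of P4ha1, -0.04 to 0.29 and -0.27 to 0.43, ended below that of P4ha2, 1.76 to 2.05. P4hb itself, at 5.03 and 5.02 in ID8G cells and 5.50 and 5.42 in GO2 cells, differed by 0.44 (standard error 0.06, adjusted p = 0.00865).

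The promoters of these paired subunits are shown because one subunit was called and the other was not, and because genes of this family are known targets of hypoxia-inducible factors. RefSeq promoters (GRCm38.p6, 250 bases before to 50 after the start of the gene) were read for 5 of the 10 genes, Loxl4, Plod1, Plod3, P4ha1 and P4ha2. A chromosome was left out of the search for the enzymes' promoters, but not from the count of all promoters. No promoter was read for Lox, the enzyme with the largest difference, so nothing is said here of its letters. Capitals mark ACGTG and GCGTG, the cores of the hypoxia response element, on either strand. The P4ha2 promoter is chr11:54100674-54100973 on the plus strand and the P4ha1 promoter chr10:59323046-59323345, also on the plus strand.
P4ha2: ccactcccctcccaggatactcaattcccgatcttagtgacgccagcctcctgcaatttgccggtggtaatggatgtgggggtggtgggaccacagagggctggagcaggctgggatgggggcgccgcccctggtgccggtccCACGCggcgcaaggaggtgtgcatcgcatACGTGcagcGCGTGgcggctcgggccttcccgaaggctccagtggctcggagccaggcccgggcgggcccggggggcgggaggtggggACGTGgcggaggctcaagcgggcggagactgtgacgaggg
P4ha1: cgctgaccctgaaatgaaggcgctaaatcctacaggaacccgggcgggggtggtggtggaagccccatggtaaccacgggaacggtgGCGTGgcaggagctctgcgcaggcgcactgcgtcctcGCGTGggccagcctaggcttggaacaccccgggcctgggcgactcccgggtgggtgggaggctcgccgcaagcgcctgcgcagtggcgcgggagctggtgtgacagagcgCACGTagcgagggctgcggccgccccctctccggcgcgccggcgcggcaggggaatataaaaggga
The P4ha2 sequence holds ACGTG at 2 positions and GCGTG at 2, and the P4ha1 sequence ACGTG at 1 and GCGTG at 2. Of the other promoters, Plod3 holds 1 and 3 matches, Plod1 holds 0 and 2, and Loxl4 holds 0 and 1. Of all 32851 promoters of this length, 19.6% hold ACGTG, 32.4% hold GCGTG and 43.8% hold either. These percentages are not matched for base content. G and C make up 70.3% of the P4ha2 and of the P4ha1 promoter. The lowest share among the 5 is 53.3% (Plod3), and the median of all promoters is 52.7%. Whether promoters of equal G and C content hold as many matches was not tested. Such a match is a description of the letters and not a binding site, and its part in the level of either gene was not tested.

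The partners of these enzymes were described by lists of genes, each gene by its brightest tested probe. Over all 13215 genes, 5.98% were called higher and 3.94% lower. Among fibrillar collagens, the chains that the enzymes modify, 6 of 7 tested genes were called higher and 0 lower, with a median difference of 4.61, or 4.20 with genes not well above background in ID8G cells at their bound. At an unadjusted p below 0.05 with a 2-fold difference, 0 were lower (limma), and 0 were called by the methods' t-test with adjustment. Col1a1 had levels of 1.30 and 1.33 in ID8G cells and 5.98 and 6.04 in GO2 cells. Col1a2 was higher by 7.49, and Col5a2, a chain of type V collagen, was at least 12.8-fold higher. With signal required on all 4 arrays 4 genes were called higher.

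Among components of elastic fibers and microfibrils, the other matrix that lysyl oxidases serve, 3 of 6 tested genes were called higher and 0 lower (0 by unadjusted p, limma). With signal required on all 4 arrays only Ltbp1 remained tested among the called genes, and 1 gene was called higher. Fbn1, the fibrillin of microfibrils, had levels of -4.42 and -4.34 in ID8G cells, well above background on neither array, and 1.56 and 1.49 in GO2 cells, at least 36.7-fold higher. Fbln5, which assembles elastic fibers, was at least 36.0-fold higher and Ltbp1, which anchors latent TGF-beta, was higher by 1.29 on the log2 scale.

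Of the other prolyl hydroxylation subunits, 2 of 8 were called higher and 0 lower (also 0 by unadjusted p, limma), with a median of 0.52. P3h2, a prolyl 3-hydroxylase best known for basement membrane collagen, had levels of -4.64 and -4.61 in ID8G cells and -1.57 and -1.58 in GO2 cells, at least 4.29-fold higher. P3h3, of the same family, was higher by 1.69 (standard error 0.09, adjusted p = 0.00105). The remaining 6 genes, among them Crtap (0.61, adjusted p = 0.00304) and P3h1 (0.21, adjusted p = 0.0431), were not called. With signal required on all 4 arrays 1 gene of the list, P3h3, was called higher. P4ha3, the third alpha subunit, read -0.78 and -3.97 on the ID8G arrays, well above background on 1 of them, and its difference of 0.72 did not pass (95% interval -2.43 to 3.88, adjusted p = 0.651). Without ID8G replicate 1 it was called, with a difference of 2.32.

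Collagen chaperones and glycosyltransferases had 1 of 8 genes called higher and 0 lower (0 by unadjusted p, limma). That gene was Serpinh1, the collagen chaperone HSP47, with levels of 4.71 and 4.81 in ID8G cells and 5.78 and 5.82 in GO2 cells. Its difference of 1.04 (standard error 0.06, adjusted p = 0.00128) stood just over 2-fold, and fell short of it with spike-in scaling, at 0.84, and without ID8G replicate 1, at 0.99. Of the 10 genes for procollagen export from the endoplasmic reticulum, 2 passed the adjusted p as higher and 3 as lower with no minimum difference (limma). Their median difference was -0.02. At 2-fold, 0 were called in either direction (limma), 0 at an unadjusted p below 0.05 and 0 by the methods' t-test. The same 3 counts at 2-fold were 0 of 6 for the genes of copper supply, on which lysyl oxidases depend, with a median of 0.05. Of these, the copper pump Atp7a was lower by less than 2-fold (-0.40, adjusted p = 0.00779).

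Among the proteases and enhancers that cut the propeptides from procollagen, 3 of 7 genes were called higher and 0 lower (0 by unadjusted p, limma). By the methods' t-test at an unadjusted p below 0.05 and 2-fold, 0 of the 7 were called. Adamts2, the procollagen N-proteinase, read -5.74 and -3.16 in ID8G cells, well above background on 1 array, and 3.01 and 3.02 in GO2 cells. Its difference of 7.46 (standard error 0.90, adjusted p = 0.00753) is taken against a signal that 1 of the 2 ID8G arrays did not measure, and it ranged from 6.17 to 8.75 with 1 ID8G array left out. Pcolce2, an enhancer of the C-proteinase, was higher by 2.90. With signal required on all 4 arrays 1 gene of the list, Pcolce2, was called higher. Adamts3 was at least 1.21-fold higher, and its call was lost without either GO2 replicate, without ID8G replicate 1, with normexp, with spike-in scaling and with no filter on dim probes. Among modulators of fibril assembly, 3 of 8 genes were higher, led by Cthrc1 at 5.53, Thbs1 at 2.07 and Fn1, fibronectin, at 1.55. Another 2, named after their values were seen, were lower: the transglutaminase Tgm2 at -1.48, which crosslinks proteins by another chemistry than lysyl oxidases, and fibromodulin (Fmod), which binds collagen fibrils, at -1.42. The call of Fmod was lost with normexp background correction, at -0.83.

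**Figure D4:**
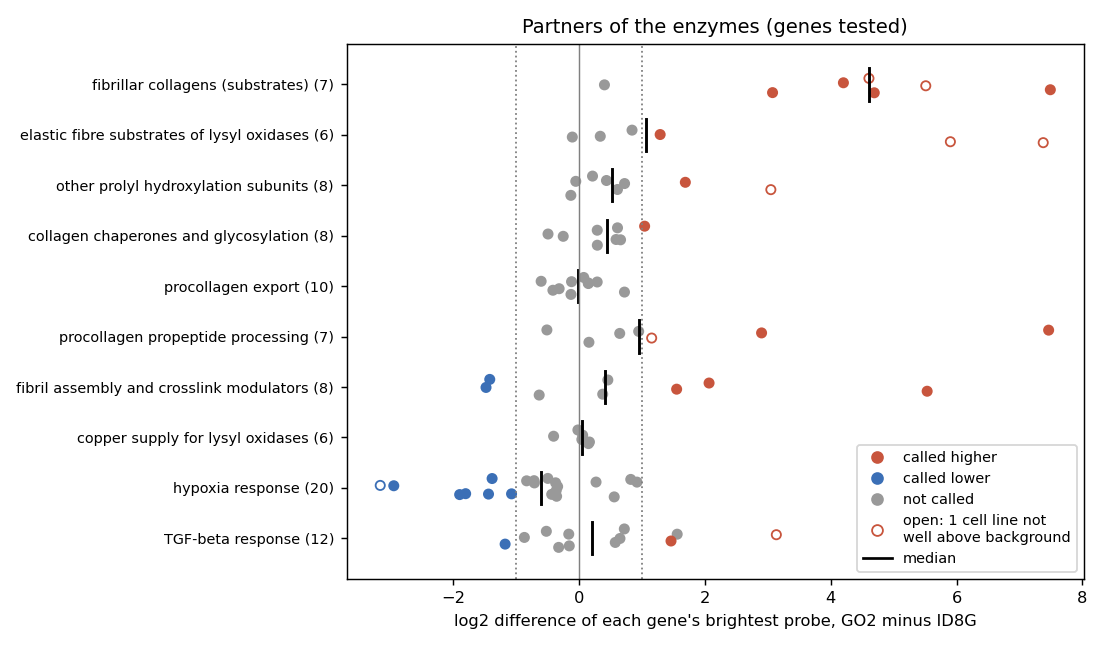
Log2 difference (GO2 minus ID8G) of the brightest tested probe of each gene in 10 lists, with the median of the list as a bar, the number of genes tested in parentheses and dotted lines at 2-fold. Open points are genes well above background on no array of 1 cell line; fibrillar collagens lie furthest to the right, and the called genes of the hypoxia response all lie to the left.

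Several of the enzymes are known to respond to hypoxia and to TGF-beta, so genes of both responses were read beside them. In the hypoxia list 0 of 20 genes were called higher (0 with 2-fold at an unadjusted p below 0.05, limma) and 7 were called lower, with a median of -0.60. Adm, the peptide adrenomedullin, was at least 4.89-fold lower. Ankrd37 had levels of 2.39 and 2.29 in ID8G cells and -0.62 and -0.59 in GO2 cells, a difference of -2.94, and Egln3, an oxygen-sensing prolyl hydroxylase, was lower by 1.90 (difference -1.90). With no minimum difference 16 of the 20 passed lower and 3 higher. In the TGF-beta list 2 of 12 genes were called higher, Ltbp2 at least 2.22-fold and Tagln by 1.46, and 1 (Tagln) with signal required on all 4 arrays. With no minimum difference 5 of the 12 passed higher and 4 lower, with a median of 0.21, so this list had no common direction. The part of either response in the levels of the enzymes was not tested.

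Markers of epithelial and other cells were read because GO2 cells were sorted from tumors, and several differed between the lines, in both directions. All 5 measured epithelial markers had lower means in GO2 cells, with a median difference of -0.81, and 4 passed at an adjusted p below 0.05. Krt19, a keratin of simple epithelia, had levels of 7.40 and 7.37 in ID8G cells and 5.72 and 5.75 in GO2 cells and was called lower (-1.65, limma adjusted p = 0.000341). Cldn3, a tight junction protein, was called lower as well (-2.37, adjusted p = 0.00045). The log2 of the mean linear level of the epithelial list was 6.09 to 6.13 on ID8G arrays and 5.15 to 5.16 on GO2 arrays.

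Of the fibroblast markers, Pdgfra, at -3.44 and -3.28 in ID8G cells and 0.31 and 0.37 in GO2 cells, was called higher (3.70, adjusted p = 0.000208) and Pdgfrb was at least 2.42-fold higher, while Thy1, Fap and Dpt were well above background on no array. Pdpn, at a mean of 5.22 in ID8G and 5.31 in GO2 cells, did not pass (0.091, adjusted p = 0.316), and its signal makes up most of the list's summed level. The log2 of the mean linear level of the 6 was 2.60 to 2.67 in ID8G cells and 2.74 to 2.82 in GO2 cells. The part of these epithelial and fibroblast markers in the differences of Lox and P4ha2 was not tested, and in RNA of a whole culture fewer cells of a type and less RNA per cell cannot be told apart.

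Of the 8 macrophage and leukocyte markers, all 4 arrays measured Itgam, Csf1r, Cd14 and Cd68 well above background, and no array Ptprc, Adgre1 or Lyz2. Fcgr3, an Fc receptor, was well above background in ID8G cells and was called lower, at least 3.40-fold. The list's level, most of it from Itgam (means 4.29 and 4.15), was 1.50 to 1.66 in ID8G and 1.44 to 1.45 in GO2 cells. Of the adipocyte markers, Adipoq, Plin1 and Cfd were well above background on no array, Lep was on all 4, and Fabp4, a fatty acid binding protein, was called lower, at least 6.34-fold. Of the endothelial markers 5 of 6, and of the lymphocyte markers 5 of 7, were well above background on no array. The part of these markers in the enzymes' differences was not tested.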

How the data were processed

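Cy3-labeled cRNA of ID8G and GO2 cells (2 arrays each) was hybridized to 1-color Agilent mouse arrays. The authors deposited spot intensities that Feature Extraction 11.5.1.1 had background-corrected, without normalization between arrays. They also deposited log2 values, centered on each probe's median (GeneSpring), used as 1 alternative.

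Outlier spots were dropped (none from the 16 enzyme probes), spots of a probe were averaged as log2 values, and each array's 75th percentile was subtracted. A probe was tested if both arrays of either line were well above background. limma 3.58.1 (R 4.3.3) was fitted with the cell line alone. Where no array of a line was well above background, the dimmest signal that passed on that array gave the bound. RefSeq accessions named 32994 of 56605 probes. With 2 arrays against 2, an exact permutation test cannot go below p = 0.333, so the limma p values depend on variance pooled across probes. The procedure was tested on simulated data.

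The enzymes and lists were chosen with earlier results of these data known. Named are all enzymes, up to 3 called genes per list by size of difference, and up to 3 markers per list of each kind. P4hb, P4ha3, P3h1, Crtap, Atp7a, Itgam and the called markers fall outside that rule and were named after their values were seen. The lower calls of the TGF-beta list are not reported here. Alternatives were normexp (offset 50, on the median pixel), quantile normalization, median centering, spike-in scaling, other filters, outlier spots kept, an intensity trend, a replicate block, the methods' t-test, the deposited log2 values and each array left out. Figures were drawn with matplotlib 3.10.9.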

Additional observations from a re-analysis of the deposited data

How the results depend on the processing

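The 3 probes called higher (2 of Lox, 1 of P4ha2) were called in every setting except the methods' t-test with adjustment, which called 0 of them, 0 probes higher and 3 lower in all, and 0 genes of the lists higher and 0 lower. At an unadjusted p below 0.05 and 2-fold that test called 3 enzyme probes, and 16 list genes higher and 9 lower. None of these list genes was of the propeptide processing list. With no minimum difference, 12 enzyme probes were higher, 4834 of all probes were higher and 5348 lower, and 42 list genes were higher and 28 lower. Normexp gave 818 probes higher and 517 lower. Spike-in scaling, which moved the median difference of all probes from -0.02 to -0.23, gave 1434 lower, and requiring signal on all 4 arrays gave 666 higher and 606 lower, with 12 list genes higher, since fewer probes were tested. The main counts were 1277 and 947 probes and 20 and 10 list genes. The other causes were not tested.

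Of the 12 enzyme probes past the adjusted p alone, 7 passed with spike-in scaling (and 1 lower, Plod2), 3 with no filter and 0 by the t-test. Without 1 array in turn 7 to 9 of the 16 enzyme probes were higher and 0 to 1 lower. Of the 12, 8 passed without ID8G replicate 1, 9 without ID8G replicate 2, 8 without GO2 replicate 1 and 7 without GO2 replicate 2. Loxl4 A_55_P2044143, not among the 12, passed as higher without ID8G replicate 1 and as lower without ID8G replicate 2. A line left with 1 array borrowed its spread from the other. With the replicate block 10 of the 12 passed and the 3 calls stayed. Replicate numbers gave no pairing: the differences between replicates 1 and 2 correlated at 0.0273 between the lines, across probes.

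Signs changed for probes that were not called: Loxl4 A_55_P2044143 was 0.064 with normexp and ranged from -0.71 to 0.52 with 1 array left out. P4ha1 A_51_P458067 was -0.081 with spike-in scaling. P4ha1 A_65_P04309 was -0.12 with spike-in scaling and ranged from -0.085 to 0.25 with 1 array left out. Of 239 comparisons of an enzyme probe with a setting, 231 kept direction and call. Naming probes by a gene name column was not run because the scanner files used here have none, and the slide as a block was not run because there is 1 slide.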
